A study of Homo sapiens with 9 samples.

Results

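Transcript levels of 8 aldehyde dehydrogenase genes and of the surface markers *PROM1* (CD133) and *CD44* were measured in OVCAR3 cells with raised or lowered *CTCFL*. These 10 genes, out of 60660 in the count matrix, were listed by name as detoxifying aldehyde dehydrogenases or as markers in use for ovarian cancer stem cells. They were *ALDH1A1*, *ALDH1A2*, *ALDH1A3*, *ALDH1B1*, *ALDH3A1*, *ALDH3A2*, *ALDH3B1*, *ALDH7A1*, *PROM1* and *CD44*. OVCAR3 is an established line of human epithelial ovarian cancer, and the 9 RNA-seq libraries held 3 biological replicates for each of 3 groups. CTCFL-OE cells received a plasmid that carries the open reading frame of *CTCFL* (BORIS), and Control cells received the matching LacZ plasmid. Both plasmids were introduced by transient transfection, at 2 µg with collection 48 h later. In CTCFL-KD cells *CTCFL* was lowered with siRNA. Their RNA came from earlier knockdown experiments, so that the knockdown and the separate experiment cannot be told apart when CTCFL-KD is set against the LacZ plasmid. Each biological replicate pooled 3 technical replicates, and a single cell line was used throughout.

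Aldehyde dehydrogenases oxidise aldehydes to carboxylic acids with NAD or NADP as cofactor. The ALDH1A enzymes turn retinaldehyde into retinoic acid, and other members of the family clear aldehydes from lipid peroxidation, ethanol, amino acids and choline. High aldehyde dehydrogenase activity, the membrane glycoprotein CD133 and the hyaluronan receptor CD44 are in use to sort ovarian cancer cells with stem cell properties, and bulk RNA, as here, cannot tell fewer cells that carry a marker from less of its RNA per cell.

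*CTCFL*, which encodes a paralog of the insulator protein CTCF and is classed as a cancer-testis antigen, was counted first as a check of the labels. It had 6, 9 and 10 counts in the Control libraries, 36, 34 and 72 counts in CTCFL-OE, and 0, 1 and 0 counts in CTCFL-KD. The 3 groups did not overlap, in the order given by the labels. Total counts ran from 14332622 to 24490080 per library. Levels are given as CPM after TMM scaling, and before that scaling 3 counts amounted to 0.122 to 0.209 CPM. Mitochondrial genes took 6.52%, 6.31% and 6.16% of the counts in Control, 7.40%, 12.4% and 14.9% for CTCFL-OE and 11.8%, 9.64% and 7.80% for CTCFL-KD. CTCFL-KD replicate 1 had the lowest total and the lowest TMM factor, 0.775, against 0.945 to 1.09 in the other libraries.

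Per length of the canonical transcript, the 10 genes fell into a high and a low class in Control cells. *ALDH7A1* led with 20.3 CPM per kb, followed by *ALDH1B1* with 16.2, *ALDH3B1* with 15.3, *CD44* with 11.7, *ALDH3A2* with 11.1 and *ALDH1A1* with 6.32 CPM per kb. *CD44* and *ALDH3A2* overlapped over the Control libraries, whereas the other neighbours among these 6 were separate. *ALDH1A2* and *ALDH1A3* both stood at 0.380 CPM per kb and overlapped, *PROM1* stood at 0.119, and *ALDH3A1* had no count. In CTCFL-KD the order was different, with *ALDH1A1* at 14.7 CPM per kb level with *ALDH3A2*, and *PROM1*, at 1.81 CPM per kb, overlapping *CD44* at 1.61. These orders depend on the length used. Divided by all exons of each gene, *ALDH1B1* led in Control with 15.7 CPM per kb. *ALDH3B1* then had 6.51, *CD44* 6.37, *ALDH7A1* 5.41, *ALDH1A1* 4.66 and *ALDH3A2* 2.67 CPM per kb.

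**Figure D1:**
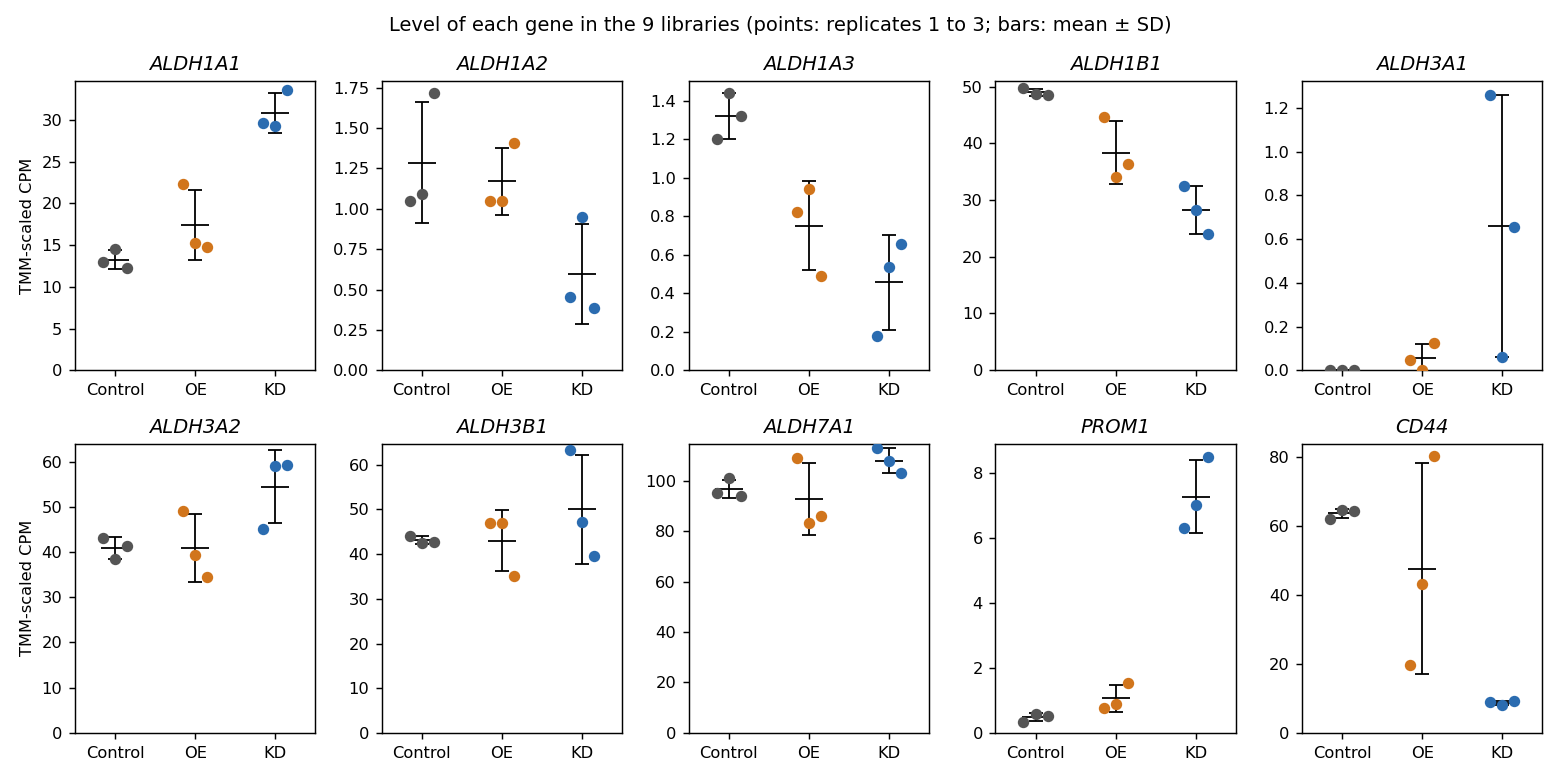
Level of each of the 10 genes in the 9 libraries, as TMM-scaled CPM on a linear axis from 0, with replicates 1 to 3 as points from left to right and the mean ± SD of each group as bars. *PROM1* and *ALDH1A1* sit highest in the CTCFL-KD libraries, *CD44* lowest, and the 3 CTCFL-OE libraries spread from 19.7 to 80.3 CPM for *CD44*.

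Of the 10 genes, 9 had enough counts to be tested, and 4 of these 9 changed in CTCFL-KD against Control, beside 23.2% of all 17794 genes tested. Calls in CTCFL-KD needed more than a 2-fold difference, up or down, together with an adjusted p under 0.05 from the quasi-likelihood test of edgeR. *PROM1* and *ALDH1A1* rose, beside 15.3% of all genes called higher, and *CD44* and *ALDH1A3* fell, beside 7.94% called lower. For 8 of the 9 genes the CTCFL-KD libraries did not overlap with the Control libraries, which was the case for 56.3% of all genes tested. None of the 9 was called in CTCFL-OE against Control, where 2.07% of all genes passed a log2 fold change beyond 1 and an adjusted p under 0.1. With these same thresholds DESeq2 called 0 of them as well. At an unadjusted p under 0.05 edgeR counted 2 of the 9 in CTCFL-OE. The share of all genes at that unadjusted p was not counted, here or for the lists below, so these counts have no background. For 4 of the 9 the CTCFL-OE libraries lay apart from Control, beside 37.1% of all genes.

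**Figure D2:**
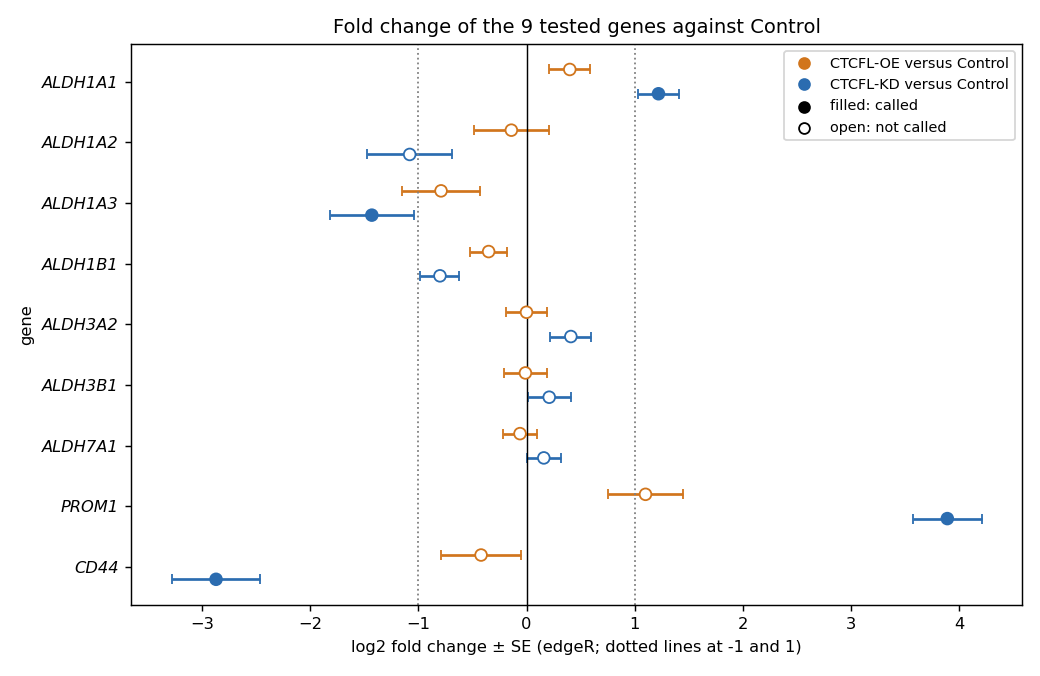
Log2 fold change ± SE of the 9 tested genes in CTCFL-OE (orange) and CTCFL-KD (blue), each against the same 3 Control libraries, with filled points for called genes and dotted lines at -1 and 1. *PROM1* at 3.89 and *CD44* at -2.87 in CTCFL-KD lie farthest from 0, and every CTCFL-OE point is open.

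*ALDH1A1*, the retinaldehyde dehydrogenase most often measured in stem cell assays, lies on chromosome 9 of GRCh38 (72900671 to 73080442, minus strand). It was counted at 13.0, 14.5 and 12.3 CPM in Control, 22.3, 15.3 and 14.8 CPM in CTCFL-OE and 29.6, 29.3 and 33.6 CPM in CTCFL-KD. All CTCFL-KD libraries lay above all others, and CTCFL-OE replicate 1 stood between the groups. The rise in CTCFL-KD was 2.33-fold (log2 fold change 1.22 ± 0.19 SE, edgeR adjusted p = 8e-04, higher in 3 of 3 libraries). Against Control, the CTCFL-OE mean of 17.5 ± 4.20 CPM (SD, n = 3) was a log2 fold change of 0.40 ± 0.19 SE, which did not pass (edgeR adjusted p = 0.308). Without CTCFL-OE replicate 1 that value was 0.17, although all CTCFL-OE libraries were above all Control libraries.

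The promoter of *ALDH1A1* is shown because the gene rose in CTCFL-KD while other members of its subfamily did not. The run holds the 250 bases before the RefSeq start (GRCh38.p14, chr9:72953054-72953303, minus strand), and its capitals mark a CCAAT box, the only match to the 5 motifs searched on both strands.
ALDH1A1: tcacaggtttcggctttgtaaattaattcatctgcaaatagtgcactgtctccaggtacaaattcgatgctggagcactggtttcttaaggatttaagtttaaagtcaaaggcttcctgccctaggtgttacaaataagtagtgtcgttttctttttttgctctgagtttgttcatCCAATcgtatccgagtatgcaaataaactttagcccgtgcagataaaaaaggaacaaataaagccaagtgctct
The motifs were the CTCF core (AGGNGGC, shared by sites of CTCF and CTCFL), the CCAAT box, the GC box of SP1 (GGGCGG), the retinoid half-site (AGGTCA) and the xenobiotic core of sites for the aryl hydrocarbon receptor (GCGTG). Of 35116 RefSeq promoter windows of the same length, 31.5% held the CTCF core, 32.0% the CCAAT box, 42.6% the GC box, 12.1% the retinoid half-site and 32.2% the xenobiotic core. The *ALDH1A1* window, with its CCAAT box starting 74 bases before the start, is poor in G and C, at 38.4% against a median of 58.0% over all windows. Only 10.1% of the windows held less. A match describes letters and not binding, which was not measured in these libraries.

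*ALDH1A2* and *ALDH1A3*, both on chromosome 15, encode the other retinaldehyde dehydrogenases, known for retinoic acid synthesis in the embryo. *ALDH1A3* had 24, 37 and 26 counts in Control, 18, 18 and 8 counts in CTCFL-OE, and only 2, 9 and 12 counts in CTCFL-KD. On the CPM scale, all CTCFL-OE and all CTCFL-KD libraries lay below all Control libraries, and the 2 altered groups overlapped. The fall in CTCFL-KD was 2.70-fold (log2 fold change -1.43 ± 0.39 SE, edgeR adjusted p = 0.0150), and without Control replicate 2 it no longer passed (edgeR adjusted p = 0.0532, log2 fold change -1.38). In CTCFL-OE the log2 fold change was -0.79 ± 0.36 SE (edgeR adjusted p = 0.277). An antisense transcript on the opposite strand, *ALDH1A3-AS1*, had 41 to 70 counts in each library. Its reads and those of *ALDH1A3* could be mixed, since the strand setting of the counting is not given in the sources used here.

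*ALDH1A2* had 21, 28 and 34 counts in Control, a similar 23, 20 and 23 counts in CTCFL-OE, and 5, 16 and 7 counts in CTCFL-KD. The CTCFL-KD libraries were the lowest, at 0.451, 0.951 and 0.383 CPM, with replicate 2 close to the 1.09 CPM of Control replicate 2. The log2 fold change in CTCFL-KD was -1.08 ± 0.39 SE, and its edgeR adjusted p of 0.0502 lay just outside the threshold. It passed with RLE scaling (edgeR adjusted p = 0.0476), with no low-count filter (0.0308) and without CTCFL-KD replicate 2 (0.0156, log2 fold change -1.61). Its log2 fold change was -0.83 without Control replicate 3, and -0.95 and -0.81 without CTCFL-KD replicates 1 and 3, all short of the fold threshold. *LIPC*, which overlaps *ALDH1A2* on the opposite strand, had 56, 51 and 44 counts in Control and 8, 9 and 10 in CTCFL-KD. *LIPC-AS1*, on the same strand as *ALDH1A2*, had 13, 15 and 8 counts against 2, 3 and 5 in these groups, and *AQP9*, on the opposite strand, had 1, 0 and 2 against 12, 27 and 17. The part of these overlapping genes in the *ALDH1A2* counts was not tested. In CTCFL-OE the *ALDH1A2* libraries overlapped those of Control, with a log2 fold change of -0.14 ± 0.35 SE.

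The *ALDH1A3* promoter differs in base composition from that of *ALDH1A1*. It is shown over the 250 bases before the RefSeq start (GRCh38.p14, chr15:100879581-100879830, plus strand), with capitals on every match to the 5 motifs.
ALDH1A3: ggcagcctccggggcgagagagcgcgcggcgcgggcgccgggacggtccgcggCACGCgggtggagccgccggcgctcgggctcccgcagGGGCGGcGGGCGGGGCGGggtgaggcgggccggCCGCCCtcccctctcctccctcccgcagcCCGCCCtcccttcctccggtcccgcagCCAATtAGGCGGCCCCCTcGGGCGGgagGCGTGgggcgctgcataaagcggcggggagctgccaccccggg
G and C make up 82.4% of this window, more than in 98.6% of all windows. It holds 6 GC boxes, 1 CCAAT box, 2 xenobiotic cores and 2 overlapping CTCF cores, which begin 65 and 60 bases before the start.

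*ALDH1B1*, *ALDH3A2*, *ALDH3B1* and *ALDH7A1* were not called in any comparison. The first, a mitochondrial enzyme of acetaldehyde and retinaldehyde oxidation on chromosome 9, was the steadiest in Control, at 49.7, 48.7 and 48.6 CPM. It stood at 44.6, 34.1 and 36.3 CPM in CTCFL-OE and 32.4, 28.2 and 24.0 CPM in CTCFL-KD, and the 3 groups did not overlap. Its log2 fold change in CTCFL-KD was -0.80 ± 0.18 SE (edgeR adjusted p = 0.00487), so that the p passed and the fold of 1.74 did not. In CTCFL-OE it was -0.35 ± 0.17 SE (edgeR adjusted p = 0.316).

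*ALDH3A2*, the fatty aldehyde dehydrogenase whose loss causes Sjögren-Larsson syndrome, was counted at 43.1, 38.4 and 41.3 CPM in Control and 45.2, 59.0 and 59.2 CPM in CTCFL-KD. The groups were apart, with CTCFL-KD replicate 1 near Control, and the log2 fold change was 0.41 ± 0.19 SE (edgeR adjusted p = 0.102). *ALDH3B1*, which oxidises medium and long chain aldehydes at membranes, had 44.1, 42.5 and 42.8 CPM in Control. Its CTCFL-KD libraries, at 63.3, 47.3 and 39.5 CPM, lay on both sides of Control, and it was the single tested gene of the 9 whose CTCFL-KD and Control libraries overlapped. *ALDH7A1*, the antiquitin enzyme of lysine breakdown, had 95.1, 101 and 94.1 CPM in Control and 113, 108 and 103 CPM in CTCFL-KD. The groups were apart by little, with a log2 fold change of 0.16 ± 0.16 SE. In CTCFL-OE the log2 fold changes of these 3 genes were 0.00, -0.01 and -0.06, each with libraries that overlapped Control, and the signs of such small values turned under some alternatives. The pseudogene *ALDH7A1P1* had 10 to 54 counts per library, beside 1252 to 2608 for *ALDH7A1*.

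*ALDH3A1*, a cytosolic enzyme known from cornea and as an inducible gene of the aryl hydrocarbon receptor, did not reach the count needed for the test. It had 0 counts in all 3 Control libraries, 1, 0 and 2 counts in CTCFL-OE, and 14, 1 and 12 counts in CTCFL-KD. CTCFL-KD replicates 1 and 3 were above all Control and CTCFL-OE libraries, and replicate 2 was above Control by 1 count. Set against a floor of 3 counts over the Control group, the 27 counts of CTCFL-KD were at least 12.8-fold higher, a limit that rests on replicates 1 and 3. Where the filter was left out the gene was tested and called (edgeR adjusted p = 6.35e-07), and DESeq2 called it as well (adjusted p = 0.000712). It also entered and passed without any single Control or CTCFL-OE library and without CTCFL-KD replicate 2. In those fits it entered only through CTCFL-KD replicates 1 and 3, in the group where it was high, so they add no separate support. The standing of *ALDH3A1* thus turned on the filter. Its neighbour *ALDH3A2* lies 52.2 kb away on chromosome 17 and remained uncalled, as above.

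*PROM1* encodes CD133, a pentaspan glycoprotein of membrane protrusions, and lies on chromosome 4 (15963076 to 16084378, minus strand). It was near the detection limit in Control, with 7, 15 and 10 counts, had 17, 17 and 25 counts in CTCFL-OE and reached 70, 118 and 155 counts in CTCFL-KD. In CPM, Control ran from 0.351 to 0.583, CTCFL-OE from 0.775 to 1.54 and CTCFL-KD from 6.31 to 8.49, so that the 3 groups were apart. The rise in CTCFL-KD was 14.8-fold (log2 fold change 3.89 ± 0.32 SE, edgeR adjusted p = 1.35e-05, higher in 3 of 3 libraries). It was the largest change among the 9 tested genes. In CTCFL-OE all 3 libraries were above Control too, and the log2 fold change of 1.10 ± 0.35 SE did not pass (edgeR adjusted p = 0.151). It passed in the fit to these 2 groups alone, without CTCFL-OE replicate 1 and without CTCFL-KD replicate 1 (edgeR adjusted p = 0.0845, 0.0636 and 0.0579). Over all alternatives its edgeR or DESeq2 adjusted p ran from 0.0579 to 0.469.

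The *PROM1* promoter is printed as that of the gene with the largest rise among the 9 tested. RefSeq lists 4 starts, and the run gives the 250 bases before the most upstream one (GRCh38.p14, chr4:16084024-16084273, minus strand), with its single motif match, a CCAAT box, in capitals.
PROM1: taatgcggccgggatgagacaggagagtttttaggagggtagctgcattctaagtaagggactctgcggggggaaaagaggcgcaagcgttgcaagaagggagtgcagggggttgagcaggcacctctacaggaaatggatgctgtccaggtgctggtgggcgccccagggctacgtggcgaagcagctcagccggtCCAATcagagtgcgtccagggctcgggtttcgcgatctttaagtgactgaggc
This CCAAT box begins 53 bases before the start. The window holds 58.8% G and C, close to the median of all windows. The windows of the next 2 starts downstream each hold 1 CTCF core, and neither holds a CCAAT box.

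*CD44*, the receptor for hyaluronan and osteopontin, lies on chromosome 11 (35138882 to 35232402, plus strand). It had 62.1, 64.7 and 64.3 CPM in Control, 19.7, 43.1 and 80.3 CPM in CTCFL-OE and 8.93, 8.09 and 9.20 CPM in CTCFL-KD. The Control and CTCFL-KD libraries were each tight and far apart, while the CTCFL-OE libraries spread over a range of levels on both sides of Control. The fall in CTCFL-KD was 7.29-fold (log2 fold change -2.87 ± 0.41 SE, edgeR adjusted p = 0.000398, lower in 3 of 3 libraries). The CTCFL-OE mean of 47.7 ± 30.5 CPM (SD, n = 3) gave a log2 fold change of -0.42 ± 0.37 SE (edgeR adjusted p = 0.581). It was -0.05 without CTCFL-OE replicate 1 and -1.03 without CTCFL-OE replicate 3, neither of which passed. The order of the 3 CTCFL-OE libraries for *CD44* was also that of their mitochondrial shares of 7.40%, 12.4% and 14.9% and of their *CTCFL* levels of 1.64, 1.78 and 4.42 CPM. The parts of RNA quality and of *CTCFL* dose in this spread cannot be told apart. Gene counts pool the splice forms of *CD44*, so standard and variant forms were not separated.

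The *CD44* promoter is printed as that of the gene with the largest fall, over the 250 bases before its RefSeq start (GRCh38.p14, chr11:35138921-35139170, plus strand).
CD44: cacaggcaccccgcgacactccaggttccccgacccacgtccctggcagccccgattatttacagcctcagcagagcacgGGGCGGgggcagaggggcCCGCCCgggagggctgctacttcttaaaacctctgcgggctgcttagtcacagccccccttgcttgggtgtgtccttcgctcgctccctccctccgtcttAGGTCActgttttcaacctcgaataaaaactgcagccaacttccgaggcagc
Capitals mark 2 GC boxes, which begin 170 and 152 bases before the start, and 1 retinoid half-site, which begins 52 bases before it. Unlike the windows of *ALDH1A1*, *ALDH1A3* and *PROM1*, it holds no CCAAT box, and it shares the absence of a CTCF core with *ALDH1A1* and the printed window of *PROM1*. RefSeq windows were found for 9 of the 10 genes.

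CTCFL-KD was also compared with CTCFL-OE, which tests whether the 2 altered groups differ. Here too, the siRNA and the separate experiment cannot be told apart. Of the 9 genes, 2 were called, beside 17% of all genes at a log2 fold change beyond 1 and an adjusted p under 0.05. *PROM1* was 6.92-fold higher in CTCFL-KD (log2 fold change 2.79 ± 0.30 SE, edgeR adjusted p = 9.45e-05). *CD44* was 5.45-fold lower (log2 fold change -2.45 ± 0.40 SE, edgeR adjusted p = 0.00137), and its values for single libraries left out ran from -2.82 to -1.85. *ALDH1A1*, higher in all CTCFL-KD libraries, had a log2 fold change of 0.82 ± 0.19 SE (edgeR adjusted p = 0.0101) and so missed the fold threshold, which it passed without CTCFL-OE replicate 1 (log2 fold change 1.03). *ALDH1A2* passed without CTCFL-KD replicate 2 alone (log2 fold change -1.50, edgeR adjusted p = 0.0297), against -0.94 ± 0.40 SE with all libraries. *ALDH1A3* differed by -0.64 ± 0.42 SE on the log2 scale (edgeR adjusted p = 0.280), so its fall in CTCFL-KD was not shown to differ from its value in CTCFL-OE.

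The count of all genes called in CTCFL-OE rested on single libraries, which bears on the 0 of 9 there. It was 368 with all libraries, 45, 61 and 44 without Control replicates 1, 2 and 3, 1184, 79 and 109 without CTCFL-OE replicates 1, 2 and 3, and 980 without CTCFL-KD replicate 1. *PROM1* was the single gene of the 9 that any of these fits called.

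The aldehyde dehydrogenase family has 11 further genes, of which 9 were tested, and 1 of these was called in CTCFL-KD and 0 in CTCFL-OE, beside 23.2% and 2.07% of all genes. Their median log2 fold change in CTCFL-KD was 0.65, beside 0.08 for all genes, and 8 of 9 were above 0. *ALDH2*, the mitochondrial acetaldehyde dehydrogenase of ethanol metabolism, rose 3.44-fold, from 5.81, 5.63 and 5.47 CPM in Control to 26.3, 14.0 and 18.0 CPM with the knockdown (log2 fold change 1.78 ± 0.25 SE, edgeR adjusted p = 0.000401). *ALDH4A1* of proline breakdown and *ALDH5A1* of GABA breakdown had log2 fold changes of 0.98 ± 0.21 SE and 0.86 ± 0.20 SE, below the fold threshold, with all CTCFL-KD libraries above Control. Both passed in CTCFL-KD against CTCFL-OE, at 1.03 and 1.23, as did *ALDH2* at 1.71, which made 3 of 9 beside 17% of all genes. The calls in CTCFL-KD against Control numbered 2 without Control replicate 3 and without any single CTCFL-KD library. In CTCFL-OE the median of the 9 was -0.05, and none had an unadjusted p under 0.05 in edgeR. At the thresholds for calls, DESeq2 called 0, while edgeR with no low-count filter called 1.

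Over all 19 genes of the family, *ALDH18A1*, which makes the proline precursor pyrroline-5-carboxylate, had the highest level per length, at 37.7 CPM per kb in Control. It was counted at 125, 150 and 221 CPM in CTCFL-OE and at 161, 198 and 197 CPM in CTCFL-KD. The order of its CTCFL-OE libraries was that of *CD44*, an order whose share over all genes was not counted. The summed level of the 19 genes was 150, 148 and 151 CPM per kb in Control, 158, 145 and 159 in CTCFL-OE, and a higher 186, 189 and 186 in CTCFL-KD. *ALDH1A1* made up 4.15%, 4.65% and 3.87% of that sum in Control, 6.74%, 5.03% and 4.45% of it in CTCFL-OE, and a higher 7.61%, 7.41% and 8.60% in CTCFL-KD. The gene thus took a larger share of the family's transcripts in every CTCFL-KD library than in any other, and still a minor one.

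**Figure D3:**
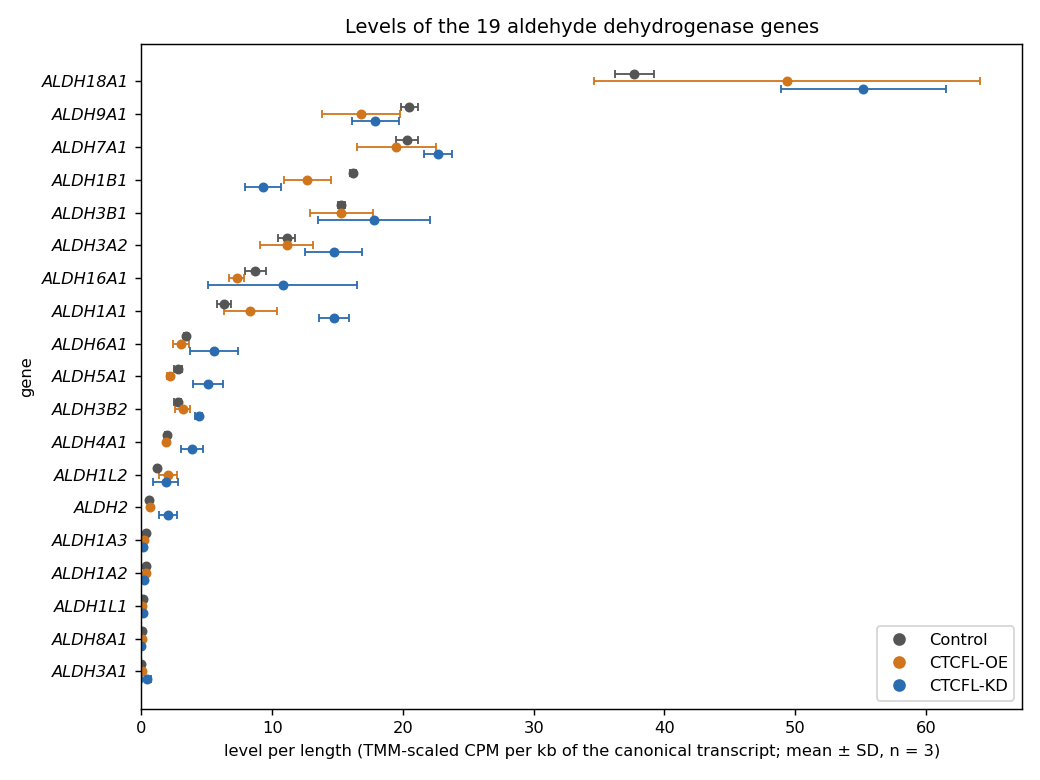
Level per length of the 19 aldehyde dehydrogenase genes, in TMM-scaled CPM per kb of the canonical transcript on a linear axis, as the mean ± SD of 3 libraries in Control (grey), CTCFL-OE (orange) and CTCFL-KD (blue). *ALDH18A1* leads at 37.7 CPM per kb in Control, and *ALDH1A1* moves from 6.32 in Control to 14.7 in CTCFL-KD.

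The genes whose profiles over the 9 libraries were most like those of *ALDH1A1*, *PROM1* and *CD44* were sought among 15371 tested genes with a mean of at least 1 CPM. Likeness was the Euclidean distance between log2 CPM profiles after subtraction of each gene's Control mean. Genes chosen in this way have similar fold changes by selection, and share the order of libraries only in part, so the values below describe them and test nothing. Nearest to *ALDH1A1* were *MYCL* (distance 0.436), *FGF12* (0.480) and *PRIMA1* (0.505). Their log2 fold changes in CTCFL-KD were 1.38, 1.34 and 1.10. Nearest to *PROM1* were *ANGPTL2* (0.578), *ANGPTL1* (0.944) and *LRP2* (0.984), with log2 fold changes of 3.75, 4.20 and 3.91 in CTCFL-KD. *ANGPTL1* had 0.318 CPM in Control and met the minimum through its 5.98 CPM in CTCFL-KD. *ANGPTL2* and *ANGPTL1* encode secreted angiopoietin-like proteins, and *LRP2* the endocytic receptor megalin. Nearest to *CD44* were *DNAJC22* (0.953), *DLX2* (1.09) and *MMP2* (1.11). These had log2 fold changes of -2.82, -2.85 and -2.75 in CTCFL-KD. *MMP2*, a secreted gelatinase, was counted at 90.2, 90.1 and 93.1 CPM in Control, 52.6, 72.0 and 136 CPM in CTCFL-OE and 18.4, 10.2 and 12.1 CPM in CTCFL-KD.

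**Figure D4:**
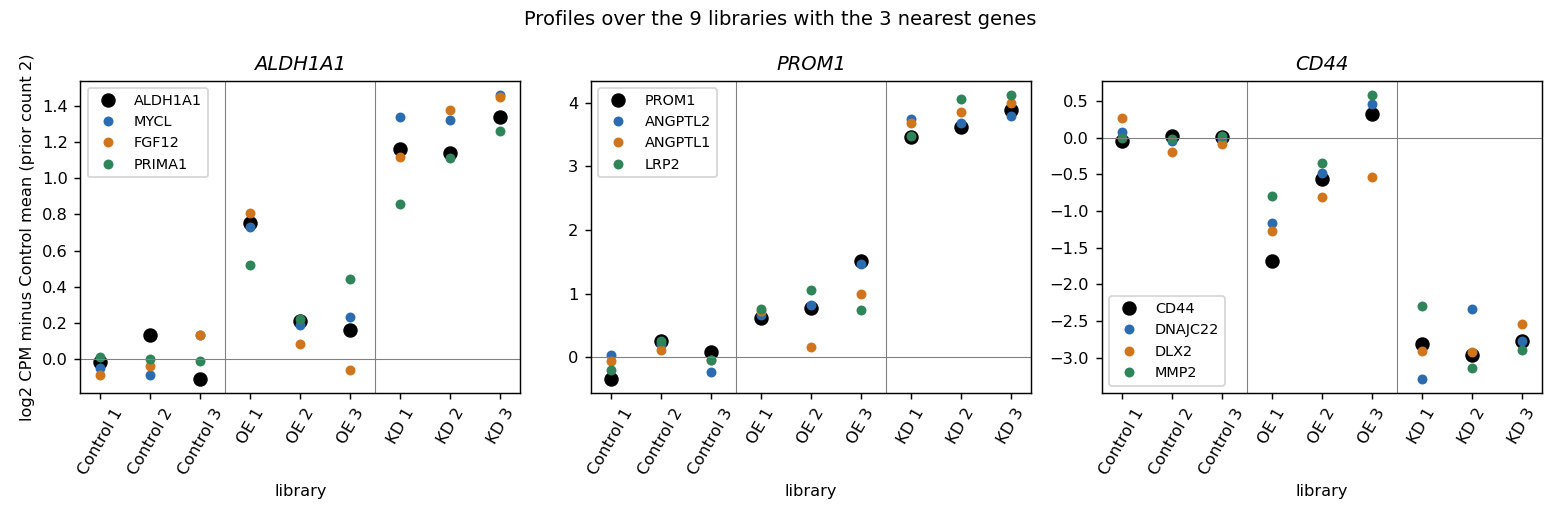
Profiles of *ALDH1A1*, *PROM1* and *CD44* (black) with their 3 nearest genes (colours) over the 9 libraries, as log2 CPM minus the Control mean with a prior count of 2. The CTCFL-OE libraries of *CD44* are spread widely, and the nearest genes follow by selection.

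Retinoic acid is the product of the ALDH1A enzymes, and 20 of 26 listed genes of its pathway were tested. In CTCFL-KD 6 were called higher and 2 lower, beside 15.3% and 7.94% of all genes, with a median log2 fold change of 0.58. *FABP5*, a fatty acid and retinoic acid carrier whose processed pseudogenes could share its reads, rose at a log2 fold change of 3.61 ± 0.34 SE. *RARB*, a receptor gene that retinoic acid induces, rose from 0.233 to 1.04 CPM on average (log2 fold change 2.19 ± 0.44 SE). It had only 4, 5 and 6 counts in Control and 6, 22 and 23 counts in CTCFL-KD. *DHRS9*, a retinol dehydrogenase, fell to 0.261 of its Control level (log2 fold change -1.94 ± 0.26 SE). *CRABP2* had the highest level per length of the list, at 106 CPM per kb in Control. In CTCFL-OE 2 of the 20 were called, beside 2.07% of all genes, namely *DHRS3* (log2 fold change 1.48 ± 0.29 SE, edgeR adjusted p = 0.0413) and *DHRS9* (1.17 ± 0.22 SE, edgeR adjusted p = 0.0352), both higher. Each lost its call without any single Control library and without CTCFL-OE replicate 2 or 3 (edgeR adjusted p from 0.147 to 0.217 for *DHRS3* and from 0.104 to 0.222 for *DHRS9*), so that 0 were left.

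Of 26 other genes in use as stem cell markers, 22 were tested, and 8 were called higher and 6 lower in CTCFL-KD, beside 15.3% and 7.94% of all genes, with a median log2 fold change of 0.54. *LGR5*, the R-spondin receptor, was counted at 4.36, 5.09 and 4.05 CPM in Control and 28.3, 65.6 and 72.7 CPM in CTCFL-KD (log2 fold change 3.62 ± 0.33 SE). The RNA-binding *LIN28B*, the Wnt receptor gene *FZD7* and the chemokine receptor gene *CXCR4* rose at log2 fold changes of 3.51, 2.47 and 2.24, the last of which was 1.63 without CTCFL-KD replicate 3. The 6 called lower were *KIT*, *ABCG2*, *LGR6*, *SOX9*, *NES* and *ENG*, at log2 fold changes from -1.54 to -1.03. The markers thus moved both ways, as *PROM1* and *CD44* did. In CTCFL-OE 4 of the 22 were called, beside 2.07% of all genes, of which *POU5F1*, *PROM2* and *SALL4* were higher (2.49-fold, 2.40-fold and 2.34-fold) and *SOX9* lower (2.09-fold). *PROM2*, the paralog of *PROM1*, stood at 7.51, 8.70 and 6.53 CPM in Control, 18.8, 17.6 and 18.3 CPM in CTCFL-OE and 30.5, 27.1 and 31.1 CPM in CTCFL-KD. Its rise in CTCFL-OE (edgeR adjusted p = 0.00763) held under all 18 alternatives, whereas *POU5F1*, *SALL4* and *SOX9* lost their calls without any single Control library and without CTCFL-OE replicate 2, and *POU5F1* and *SALL4* also without CTCFL-OE replicate 3 (edgeR adjusted p from 0.161 to 0.283). *CD24* had the highest level per length of the list, at 400 CPM per kb in Control, and was not called.

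Among 22 genes for ligands, partners, sheddases and splicing regulators of CD44, 17 were tested, and 3 were called higher and 4 lower in CTCFL-KD, beside 15.3% and 7.94% of all genes, with a median log2 fold change of 0.04. *SPP1*, which encodes the CD44 ligand osteopontin, was counted at 6.51, 8.28 and 7.70 CPM in Control, 8.07, 15.9 and 33.6 CPM in CTCFL-OE and 1.35, 0.892 and 0.603 CPM in CTCFL-KD. It fell in CTCFL-KD, as *CD44* did (log2 fold change -3.03 ± 0.52 SE, edgeR adjusted p = 0.00130). Its CTCFL-OE libraries stood in the order of those of *CD44*, as did those of the sheddase gene *ADAM10*, at 375, 416 and 629 CPM. The share of all genes with that order was not counted. The hyaluronan synthase gene *HAS3* also fell in CTCFL-KD (-1.51). There *MMP14*, a membrane protease that sheds CD44, and *CEMIP*, of hyaluronan breakdown, rose (2.37 and 1.82). *MMP14* was the single gene of this list called in CTCFL-OE, beside 2.07% of all genes (log2 fold change 1.26 ± 0.33 SE, edgeR adjusted p = 0.0927), a call lost with the replicate block (0.123), without any single Control library, without CTCFL-OE replicate 2 or 3 and without CTCFL-KD replicate 2 or 3 (edgeR adjusted p from 0.102 to 0.398). Without CTCFL-OE replicate 1 or CTCFL-KD replicate 1 the list had 2 calls there. *EZR*, the linker from CD44 to actin, had the highest level per length of the list, at 290 CPM per kb in Control, and was not called.

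*ALDH3A1* belongs to the battery of the aryl hydrocarbon receptor, and of 10 listed genes of that battery 8 were tested. In CTCFL-KD *CYP1B1* was called higher (log2 fold change 1.98 ± 0.30 SE) and *CYP1A2* and *NQO1* lower (-1.39 ± 0.33 SE and -1.19 ± 0.29 SE), with a median of -0.04, beside 23.2% of all genes called. *NQO1*, the quinone reductase and the highest gene of the list per length, was counted at 80.0, 37.3 and 33.5 CPM in CTCFL-KD against 112, 112 and 119 CPM in Control, and missed the fold threshold without CTCFL-KD replicate 3 (-0.98). In CTCFL-OE 0 of the 8 were called, beside 2.07% of all genes, and DESeq2 called 0 at the same thresholds. Without CTCFL-OE replicate 1 the count of calls was 1. At an unadjusted p under 0.05 edgeR counted 1 of the 8.

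**Figure D5:**
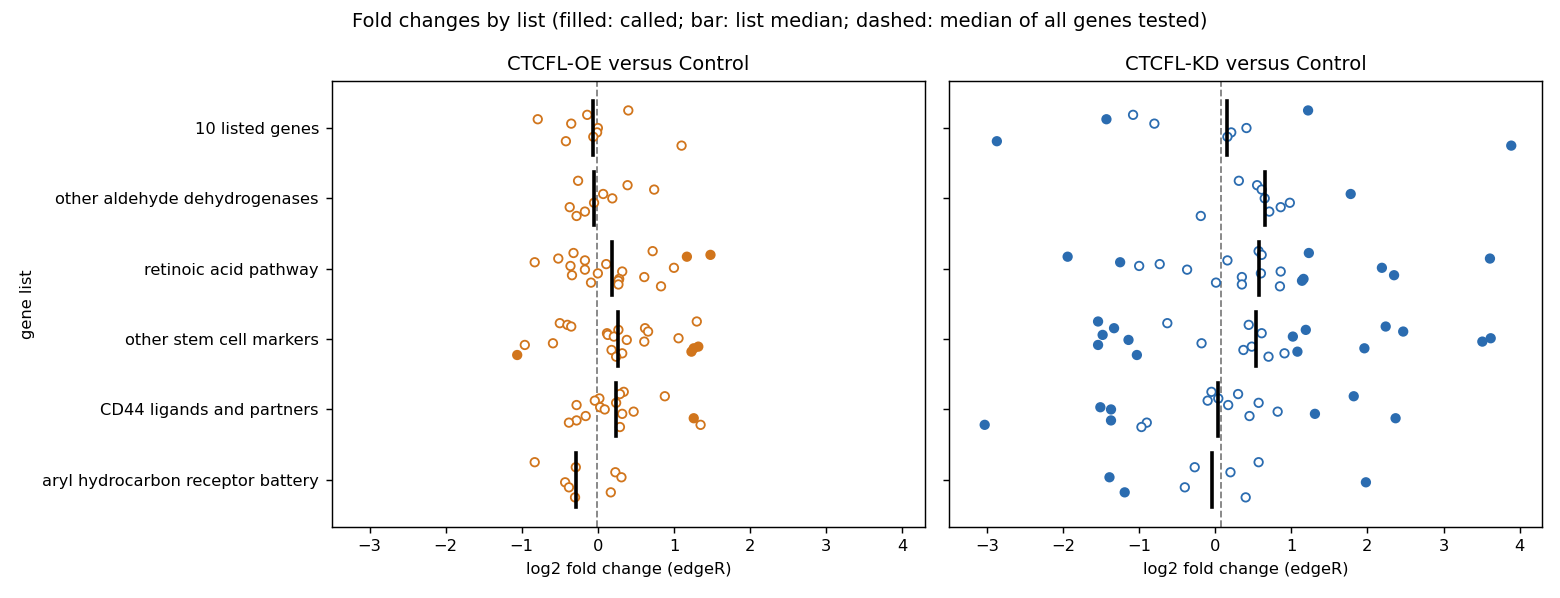
Log2 fold changes of the tested genes of each list in CTCFL-OE (left) and CTCFL-KD (right) against Control, with called genes filled, list medians as black bars and the median of all genes tested as a dashed line. In CTCFL-KD the other aldehyde dehydrogenases have a median of 0.65 with few calls, and the other stem cell markers have calls on both sides of 0.

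CD44 and CD133 are also carried by other cell types, whose defining markers were therefore counted in this monoculture. The 11 ovarian carcinoma markers, *PAX8*, *WT1*, *MUC16* and keratin genes among them, were present in every library, with summed levels of 5502, 5609 and 5518 CPM in Control, 5239, 5188 and 5087 CPM in CTCFL-OE and 16272, 10326 and 9854 CPM in CTCFL-KD. *KRT8* was the most abundant of them on average, at 1086 to 5710 CPM. Of the 11, 7 were called higher and 1 lower in CTCFL-KD, beside 15.3% and 7.94% of all genes. The gene called lower was the keratin gene *KRT7*, which fell 2.17-fold. *WT1* also lay below Control, at 47.0 against 72.8 CPM on average, and was not called. The 10 leukocyte markers summed to 0.601 to 1.91 CPM in Control and CTCFL-OE and to 4.69, 3.03 and 2.96 CPM in CTCFL-KD, led by *CD14* at up to 3.07 CPM, and *CD3E* never exceeded 1 count. The 6 endothelial markers summed to 9.37, 9.40 and 8.36 CPM in Control and 11.5, 19.9 and 20.7 CPM in CTCFL-KD, and *EMCN* was at 0 in all 9 libraries. *KDR* rose 6.63-fold in CTCFL-KD, to 5.86, 14.0 and 15.4 CPM, *PECAM1* fell 5.88-fold, and *VWF* was not called. Of the 11 fibroblast markers, which summed to at most 44.2 CPM in a library, *COL1A1* alone took 21.3 to 42.1 CPM in all groups. *COL1A2* had 0 counts in every Control library and 14.1, 14.2 and 13.5 CPM in CTCFL-KD, at least 303-fold higher against a floor of 3 counts over the Control group. *COL3A1* had 0 counts in Control and 8, 9 and 8 in CTCFL-KD, and *POSTN* rose 6.69-fold. In CTCFL-KD 2 of 4 tested fibroblast markers and 2 of 2 tested leukocyte markers were called higher, *CD14* by 14.4-fold, beside 15.3% of all genes. None of either list was called lower. *CD14* had 4, 2 and 2 counts in Control and 34, 22 and 25 in CTCFL-KD, and *POSTN* had 2, 1 and 5 against 9, 18 and 13. Both, like *COL1A2*, entered the test through CTCFL-KD, where they were high. The part of these markers in the levels of *CD44* and *PROM1* was not tested.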

How the data were processed

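RNA of OVCAR3 cells was sequenced as stranded, poly(A)-selected, paired-end libraries. The deposited counts were made by the authors with Trimmomatic for trimming, STAR for alignment (GRCh38) and featureCounts for counting per gene. The submitters' processing notes also list kallisto, and the annotation release, strand setting and handling of multiply aligned reads are not given in the sources used here. Counts were identical between the matrix and the single files of the 9 libraries. Genes were named by GENCODE release 44, which held 60419 of 60660 identifiers. Counts were filtered with filterByExpr, scaled by TMM and fitted by edgeR 4.0.16 (R 4.3.3, quasi-likelihood, robust, condition only, all 9 libraries), after a check on simulated counts, with Benjamini-Hochberg adjustment over 17794 genes. Thresholds against Control are those of the study's methods, and those of CTCFL-KD were also applied to CTCFL-KD against CTCFL-OE, which the methods do not name. Levels per length divide CPM by the canonical transcript in kb. DESeq2 1.42.0, 2 other scalings, 2 other filters, 2-group fits, robust estimation off, a replicate block and leaving out each library were alternatives. Same-numbered libraries of CTCFL-KD and Control deviated together (correlations 0.384, 0.221 and 0.265 over 11622 genes), those of CTCFL-OE and Control did not in every pair (-0.0445, 0.225 and -0.0496). Lists named at most 4 called genes per comparison with the largest changes among genes with a group mean of at least 1 CPM, plus the highest per length. The other stem cell markers called lower in CTCFL-KD were named in addition. The genes and lists were chosen with earlier results of these data known. Tables and figures used Python 3.11.15, pandas 2.3.3, numpy 2.4.6 and matplotlib 3.10.9. Promoters came from RefSeq on GRCh38.p14. Floors cover counting error only.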

Additional observations from a re-analysis of the deposited data

How the results depend on the processing

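The 27 log2 fold changes of the 9 tested genes were recomputed under 18 alternatives, which gave 477 values. Of these, 452 kept their direction and their side of the threshold, 8 newly passed, 1 no longer passed and 16 reversed. The 16 were values near 0 in CTCFL-OE against Control. With 1 library left out, the log2 fold changes there ran from -0.30 to 0.11 for *ALDH1A2*, -0.16 to 0.11 for *ALDH3A2*, -0.08 to 0.11 for *ALDH3B1* and -0.20 to 0.01 for *ALDH7A1*. *ALDH3A2* became -0.0024 with DESeq2 on all 9 libraries, -0.0047 with no low-count filter, -0.0031 with the replicate block, and -0.05, -0.16 and -0.0033 without Control replicate 2, CTCFL-OE replicate 1 and CTCFL-KD replicate 3. *ALDH3B1* became 0.01 with RLE scaling, 0.05 with upper-quartile scaling, 0.03 with edgeR and 0.0036 with DESeq2 on the 2 groups, 0.02 with at least 10 counts in every library, and 0.0033, 0.11 and 0.02 without Control replicate 1, CTCFL-OE replicate 3 and CTCFL-KD replicate 2. *ALDH1A2* became 0.11 without Control replicate 3 and *ALDH7A1* 0.01 without CTCFL-OE replicate 2. In CTCFL-KD against Control, 4 of the genes were called and 4 to 6 with 1 library left out. With at least 10 counts in every library, 2 were called, because *ALDH1A3* and *PROM1* were then not tested, and 1 in CTCFL-KD against CTCFL-OE, where 2 to 4 were called with 1 library left out. In CTCFL-OE against Control 1 was called with edgeR on the 2 groups alone, and 0 to 1 with 1 library left out. All genes called in CTCFL-OE numbered 368, and 835 and 750 with edgeR and DESeq2 on the 2 groups, 826 with no low-count filter and 44 to 1184 with 1 library left out. All genes called in CTCFL-KD against CTCFL-OE numbered 3032, and 1947 with at least 10 counts in every library, where 14490 genes were tested. With the replicate block, 302, 4027 and 2963 genes were called in CTCFL-OE and in CTCFL-KD against Control and in CTCFL-KD against CTCFL-OE, and no call of the 9 genes changed. *ALDH3A1* entered some alternatives and was called in CTCFL-KD against Control with no low-count filter and with both DESeq2 fits (DESeq2 adjusted p = 0.000712 on all 9 libraries). It was also called there without any single Control or CTCFL-OE library or CTCFL-KD replicate 2, where it entered only through CTCFL-KD replicates 1 and 3. In CTCFL-KD against CTCFL-OE it passed with DESeq2 on all 9 libraries (log2 fold change 3.54, DESeq2 adjusted p = 0.0413). It passed there with no low-count filter as well (3.31, edgeR adjusted p = 0.000669). The gene is included in the counts of calls above. The same alternatives were applied to 23 named values of the lists after the data were seen, and 374 of 407 kept their call, 33 lost it and 0 reversed. The values of the other stem cell markers called lower in CTCFL-KD were not among the 23. Depth limits *ALDH1A2*, *ALDH1A3*, *ALDH3A1* and the Control level of *PROM1*, where single libraries held 0 to 37 counts. Of the listed genes, it also limits the Control levels of *LIN28B*, *RARB*, *CD14*, *POSTN* and *COL1A2*. With 3 replicates a group, a p that missed the threshold does not show that levels were equal.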
